A study of Mus musculus with 4 samples.

Results

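Neuropilins, plexins and the leucine-rich repeat protein gene Islr2 were compared between 2 striatal regions of old mice, the nucleus accumbens and the dorsal striatum. The group holds 10 genes, picked by name out of 32531 gene rows: the neuropilins Nrp1 and Nrp2, the plexins Plxna1, Plxna2, Plxna3, Plxna4, Plxnb1, Plxnc1 and Plxnd1, and Islr2. They were chosen with their difference between these regions already known, so levels and differences of the 10 genes are given as a description, without p-values. All 10 had enough reads to enter the comparison across genes.

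Counts came from 4 input libraries, 2 of accumbens and 2 of dorsal striatum, all from animals over 20 months old of the line Drd1-TRAP CP73, written Drd1-EGFP/Rpl10a-CP73 in the sample titles. These mice express EGFP-tagged Rpl10a, a ribosomal protein, from the Drd1 promoter, so all libraries of both regions carry the transgene. The labels call these libraries input and describe total RNA from homogenized tissue. They do not say further how input was set apart from ribosome-bound RNA. The labels do not say whether the libraries came from separate or pooled animals, so the spread between them may be technical.

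Plexins are transmembrane receptors for semaphorins, secreted or membrane-bound proteins that steer growing axons and later shape synapses. Neuropilins have no signalling domain of their own. They bind class 3 semaphorins and vascular endothelial growth factors (VEGF), and hand the semaphorin signal to class A plexins. Plexins act through a GTPase-activating domain and through small GTPases such as Rac1. Islr2, also known as Linx, is a transmembrane protein with leucine-rich repeats and an immunoglobulin domain that takes part in axon growth, in part through the receptor kinase Ret. In the striatum, Plxnd1 and its ligand Sema3E are known from synapse formation on direct pathway projection neurons, the class that carries Drd1.

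Depth was 8478403 to 11849134 counts assigned to genes. Of 14493 genes tested with edgeR's quasi-likelihood test, 186 (1.28%) passed an adjusted p of 0.05, 144 higher in accumbens and 42 lower. Of those 186 calls, made with TMM scaling (trimmed mean of M-values), 77.4% were higher in accumbens. Other scalings gave other sets of calls. By the upper quartile 67.4% of 190 calls were higher, and by library size alone 29.5% of 244. With library size alone the median over all genes was −0.15 on the log2 scale instead of 0.02. Markers of spiny projection neurons, the main striatal cell type, were present in all libraries, with Pde10a at 1258 to 1618 CPM (read counts scaled to a common library size) in accumbens and 1961 to 1994 CPM in dorsal striatum. Of 12 lists of cell type markers, 3 held 1 gene past the threshold each: the projection neuron gene Rgs9 (lower in accumbens), the astrocyte gene Gja1 and the septum marker Ndst4 (both higher). The other 9 lists held 0 of 56 tested genes in edgeR, with 11 at an unadjusted p under 0.05, 2 past the threshold in DESeq2 and 3 in limma-voom. Over all genes the shares were 1.28% in edgeR, 19.2% at an unadjusted p under 0.05, 10.4% in DESeq2 and 2.97% in limma-voom. Nothing is drawn from these counts about the cell types.

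Among the 10 genes, 9 had higher levels in both accumbens libraries than in either dorsal striatum library, and Plxnd1 had lower levels in both. Groups did not overlap for 51.2% of all genes tested. The median log2 fold change of the 10 genes (accumbens over dorsal striatum) was 0.72, against 0.02 over all genes tested. The threshold in edgeR was passed by 3 of them, Islr2, Nrp2 and Plxna1, all higher in accumbens, where 0.994% of all genes tested were called higher and 0.29% lower. None was called lower, and 6 were higher and 0 lower at an unadjusted p under 0.05, which 19.2% of all genes tested reached. With DESeq2, which called 10.4% of the genes it gave an adjusted p, and with limma-voom (2.97%), 5 were called higher and 0 lower, the 2 added genes being Plxna2 and Plxna4. Over the 18 alternative settings used below, the share of all genes called ran from 0.71% to 28.9%, with 18.2% without accumbens replicate 1 and 28.9% without accumbens replicate 2. The counts of members called are read against these shares, and nothing is drawn from them, since the same contrast chose the members.

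**Figure D1:**
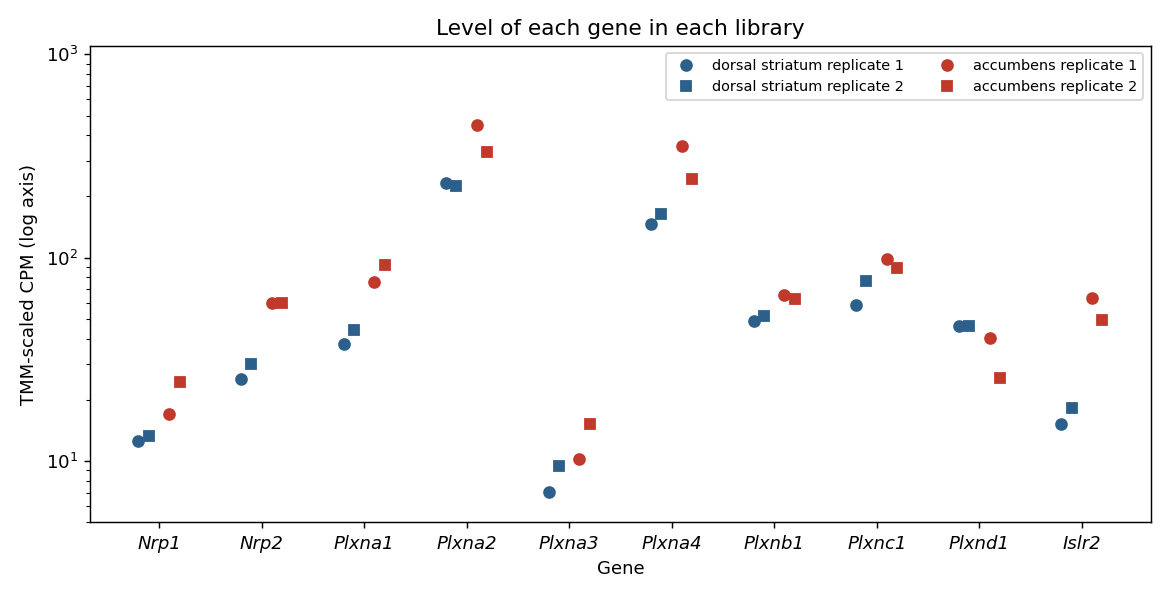
TMM-scaled CPM (log axis) of each of the 10 genes in each library, with dorsal striatum in blue, accumbens in red, circles for replicate 1 and squares for replicate 2. The red points lie above the blue ones for 9 genes and below them for Plxnd1, where accumbens replicate 2 (25.6 CPM) stands apart from the other 3 libraries.

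Islr2 (chromosome 9, 58196297 to 58204319, minus strand, GRCm38) had the largest difference of the 10. Levels were 63.2 and 49.4 CPM in accumbens replicates 1 and 2, and 15.2 and 18.2 CPM in dorsal striatum replicates 1 and 2. Both accumbens libraries thus lay far above both dorsal striatum libraries, and the gap between regions was wider than the gap between replicates. Means were 56.3 ± 9.75 against 16.7 ± 2.07 CPM (SD, n = 2 each), a 3.36-fold difference (log2 fold change 1.75, SE 0.23). That difference stood at the 98.7th percentile of all genes tested. Over the 18 alternative settings of scaling, filter, tool and libraries used, the log2 fold change ran from 1.48 to 1.91. These settings reuse the libraries behind the choice of the members, so calls of members under them, here and below, are description only.

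The upstream sequence of Islr2 is shown beside that of Plxnd1, the member with the opposite difference, because these genes mark both ends of the group. Each is the 250 bases before a RefSeq start site in GRCm38.p6, for Islr2 the most upstream of its 3, 5′ to 3′ on the gene's strand, with matches to the GC box (GGGCGG on either strand) in capitals. The windows are chr9:58204320-58204569 for Islr2 and chr6:115995006-115995255 for Plxnd1, both on the minus strand.
Islr2: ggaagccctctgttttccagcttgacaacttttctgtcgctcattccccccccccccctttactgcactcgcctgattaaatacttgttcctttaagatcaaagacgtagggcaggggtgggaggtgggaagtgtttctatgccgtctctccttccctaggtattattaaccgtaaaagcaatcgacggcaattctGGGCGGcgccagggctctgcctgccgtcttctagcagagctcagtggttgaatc
Plxnd1: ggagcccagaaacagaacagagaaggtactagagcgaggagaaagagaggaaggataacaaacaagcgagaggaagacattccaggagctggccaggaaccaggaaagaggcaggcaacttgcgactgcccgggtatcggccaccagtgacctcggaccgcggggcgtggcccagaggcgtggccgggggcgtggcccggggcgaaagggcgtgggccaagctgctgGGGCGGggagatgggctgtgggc
The Islr2 window had 52.4% GC and 10 CpG dinucleotides, and the Plxnd1 window 64.8% GC and 16 CpG, against medians of 52.4% and 6 over 32851 promoter windows. Each held 1 GC box, a motif found in 32.7% of all such windows. The table held 10 windows for 8 of the 10 genes, with no entry for Plxna1 and Plxna4, and 8 of these 10 windows held a GC box. The 2 without one are the windows of the other Islr2 start sites. Neither the E-box CACGTG (6.02% of all windows), TGACG (17.8%), TATAAA (12.4%) nor CCAAT (33.9%) was found on either strand in any of the 10 windows.

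Islr2 shares its locus with other transcripts in the GENCODE annotation of GRCm38, which may differ from the annotation behind the counts. A long form of its paralogue Islr starts just inside Islr2 on the same strand, at 58204306 against 58204319 for Islr2. It shares 181 exon bases with Islr2. Reads in a shared stretch are ambiguous in HTSeq counting. Islr, which encodes a secreted leucine-rich repeat protein, had only 45 and 14 counts in accumbens replicates 1 and 2, and 12 and 11 in dorsal striatum replicates 1 and 2. The difference for Islr, 1.77 on the log2 scale (SE 0.84), was not called (edgeR adjusted p = 0.297). On the opposite strand the processed pseudogene 1600029O15Rik (chromosome 9, 58202897 to 58208808) shares 55 exon bases with Islr2. This row, singled out after its values were seen, held 28 and 22 counts in accumbens and 2 and 5 in dorsal striatum (edgeR adjusted p = 0.112). No source used here gives the strand setting of the counting, and reads of the 2 strands cannot be told apart.

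Of the neuropilins, Nrp2 had the larger difference between regions. Nrp2 (chromosome 1, 62703285 to 62818695), the preferred receptor of Sema3F and a receptor of VEGF-C, stood at 60.2 and 60.01 CPM in accumbens replicates 1 and 2, and at 25.3 and 30.0 CPM in dorsal striatum. The accumbens libraries were nearly equal, and the dorsal striatum libraries lay well below them. The means of 60.1 ± 0.139 and 27.6 ± 3.28 CPM (SD, n = 2 each) gave a 2.17-fold difference (log2 fold change 1.12, SE 0.19). Nrp2 was not called with library size alone (0.95), without dorsal striatum replicate 1 (0.98) or without dorsal striatum replicate 2 (1.24), all on the log2 scale.

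Nrp1 (chromosome 8, 128358604 to 128503363), the receptor of Sema3A and of VEGF-A, was lower throughout. It stood at 17.0 and 24.5 CPM in accumbens replicates 1 and 2, against 12.5 and 13.3 CPM in dorsal striatum. Groups did not overlap, but the accumbens libraries differed from each other by 1.44-fold. The log2 fold change was 0.68 (SE 0.30) and was not called. Without accumbens replicate 1 it was 0.92 and called, and without accumbens replicate 2 it was 0.39. Per kilobase of transcript, the level of Nrp2 was 1.90 and 1.31 times that of Nrp1 in accumbens replicates 1 and 2, and 1.08 and 1.20 times in dorsal striatum.

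Endothelial cells also express Nrp1 and Plxnd1. The 10 endothelial markers summed to 62.7 and 19.5 CPM in accumbens replicates 1 and 2, and to 26.2 and 14.7 CPM in dorsal striatum. Of the 7 tested, 5 had a positive log2 fold change and none was called, and the tight junction gene Cldn5 was at 0 counts in replicate 2 of each region. The accumbens library with the higher marker sum had the lower Nrp1 level and the higher Plxnd1 level, and the dorsal striatum library with the higher sum had the lower level of both. In RNA of whole tissue, fewer cells of a type and less RNA per cell cannot be told apart.

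The class A plexins include the genes with the highest levels, Plxna2 and Plxna4, and all 4 had higher levels in accumbens. Plxna1 (chromosome 6, 89316314 to 89362620), a partner of both neuropilins, stood at 76.1 and 91.8 CPM in accumbens replicates 1 and 2, against 37.7 and 43.9 CPM in dorsal striatum. The regions were well apart, with means of 83.9 ± 11.1 and 40.8 ± 4.38 CPM (SD, n = 2 each), a 2.05-fold difference (log2 fold change 1.04, SE 0.18). Plxna1 was not called with the GC offset described below (0.84), with library size alone (0.87) or without dorsal striatum replicate 1 (0.91) or 2 (1.15). The annotated antisense gene Gm26811 shares 970 exon bases with Plxna1.

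Plxna2 (chromosome 1, 194618218 to 194816869), which also binds the membrane-bound class 6 semaphorins directly, had the highest level of the 10. It stood at 447 and 331 CPM in accumbens replicates 1 and 2, and at 234 and 225 CPM in dorsal striatum. The dorsal striatum libraries lay close together, while the accumbens libraries differed by 1.35-fold. Its log2 fold change of 0.76 (SE 0.16) was not called with all 4 libraries, and was called under 8 of 18 alternatives.

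Plxna4 (chromosome 6, 32144268 to 32588192), a partner of Nrp1 in Sema3A signalling, followed the same pattern. Levels were 353 and 243 CPM in accumbens replicates 1 and 2, against 146 and 164 CPM in dorsal striatum. Accumbens replicate 1 was again the highest library, 1.45-fold above replicate 2. The log2 fold change of 0.95 (SE 0.19) was not called with all 4 libraries but under 11 of 18 alternatives, among them each of the 4 that left out 1 library, with values from 0.65 to 1.19.

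Plxna3 (chromosome X, 74329066 to 74344689), which works mainly with Nrp2 in Sema3F signalling, was the least abundant of the group. It stood at 10.3 and 15.1 CPM in accumbens replicates 1 and 2, and at 7.04 and 9.40 CPM in dorsal striatum, from 67 to 121 counts. The lower accumbens library was close to the higher dorsal striatum library. Its log2 fold change of 0.62 had an SE of 0.37.

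Accumbens replicate 1, the highest library for Plxna2 and Plxna4, also held most markers of cortical glutamatergic neurons, cells that lie next to the dissected tissue. These 10 markers summed to 386 and 224 CPM in accumbens replicates 1 and 2, and to 159 and 69.6 CPM in dorsal striatum replicates 1 and 2. Of 9 tested, 7 had a positive log2 fold change and none was called (range −1.76 to 3.12). The defining marker Slc17a7 was at 198 and 79.4 CPM in accumbens and at 32.3 and 0.717 CPM in dorsal striatum, and Neurod6 was at 0 counts in dorsal striatum replicate 2. Their part in the plexin levels was not tested. Between the dorsal striatum libraries, replicate 1 had the higher marker sum and the higher level of Plxna2 (234 against 225 CPM) and the lower level of Plxna4 (146 against 164 CPM).

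Plxnb1 and Plxnc1 had smaller log2 fold changes than each of the class A genes, a difference that was not tested. Plxnb1 (chromosome 9, 109095389 to 109119917), the Sema4D receptor, stood at 65.3 and 62.5 CPM in accumbens replicates 1 and 2, against 48.6 and 51.6 CPM in dorsal striatum. Replicates agreed within 1.06-fold, and the log2 fold change was 0.35 (SE 0.17). It was called under none of the 18 alternatives, and the GC offset brought it to 0.13. Plxnc1 (chromosome 10, 94790866 to 94944835), the Sema7A receptor, was at 97.98 and 89.4 CPM in accumbens and at 58.8 and 77.2 CPM in dorsal striatum. The spread between its dorsal striatum libraries was 1.31-fold, and the log2 fold change was 0.46 (SE 0.18).

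Plxnd1 (chromosome 6, 115954811 to 115995005), which binds Sema3E without a neuropilin, was the only one of the 10 with a lower level in accumbens. Levels were 45.9 and 46.4 CPM in dorsal striatum replicates 1 and 2, and 40.4 and 25.6 CPM in accumbens replicates 1 and 2. The dorsal striatum libraries were nearly equal, and only accumbens replicate 2 lay clearly below them. Means were 33.0 ± 10.4 against 46.1 ± 0.327 CPM (SD, n = 2 each). The log2 fold change of −0.48 (SE 0.25) was not called. It was −0.20 without accumbens replicate 2 and −0.85, and called, without accumbens replicate 1. Drd1 itself, the marker of the neurons in which Plxnd1 is best known, stood at 258 and 220 CPM in accumbens replicates 1 and 2, and in dorsal striatum at 300 and 286 CPM. Of 9 tested projection neuron markers, Drd1 among them, 4 had a positive log2 fold change and 5 a negative one. Tac1, with a positive one, stood at 126 and 90.5 CPM in accumbens replicates 1 and 2, against 83.5 and 72.6 CPM in dorsal striatum. Any link between these markers and the Plxnd1 level was not tested.

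**Figure D2:**
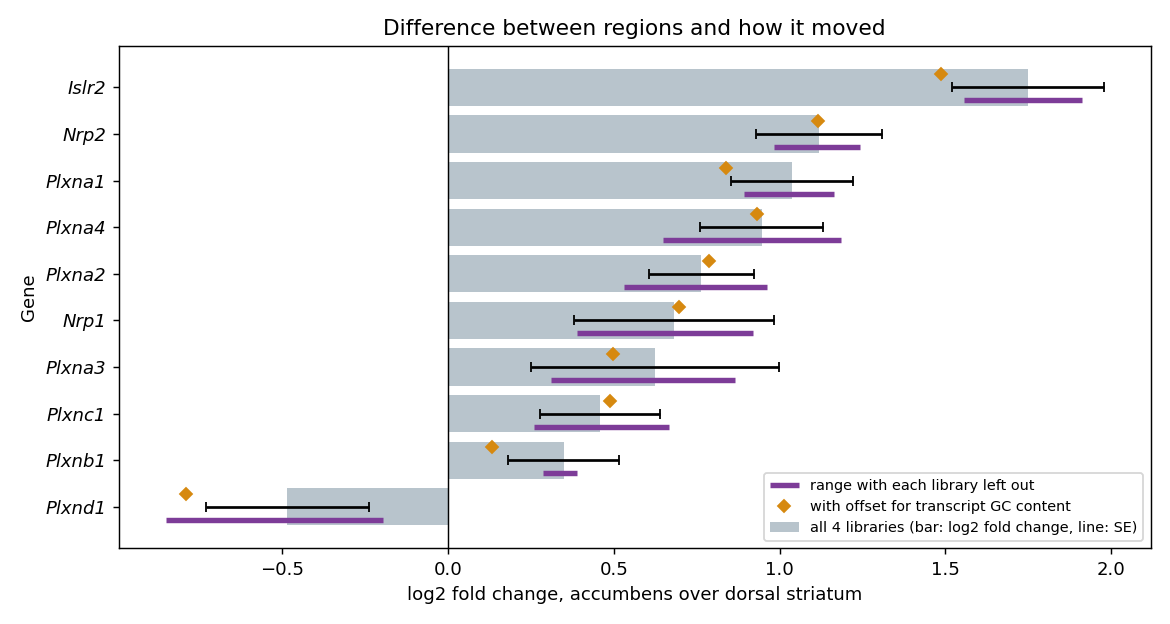
Log2 fold change, accumbens over dorsal striatum, of the 10 genes (grey bars, black lines for the SE), the range when each library was left out in turn (purple) and the value with an offset for transcript GC content (orange). The sign was kept by each gene under each setting drawn, which for left-out libraries follows from groups that do not overlap. The range of Plxnd1 ran from −0.85 to −0.20.

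Replicates in accumbens spread more than those in dorsal striatum. The ratio between the accumbens libraries was above 1.3 for 5 of 10 genes and reached 1.58 for Plxnd1, and between the dorsal striatum libraries it was above 1.3 for 2 genes and reached 1.34 for Plxna3. Nrp1, Plxna1 and Plxna3 were higher in accumbens replicate 2, and the other 7 genes in replicate 1. In dorsal striatum 9 of 10 genes were higher in replicate 2, the exception being Plxna2.

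Levels were put in order per kilobase of the longest coding transcript, since the transcripts differ in length (CPM per kb, mean ± SD, n = 2). In dorsal striatum Plxna2 came first at 20.8 ± 0.590, then Plxna4 at 12.01 ± 0.971 and Plxnc1 at 9.32 ± 1.78. Plxnd1 (6.68 ± 0.0474) and Plxnb1 (5.80 ± 0.245) followed, each apart from its neighbours. Plxna1 (4.52 ± 0.484), Nrp2 (4.11 ± 0.488), Islr2 (3.88 ± 0.482) and Nrp1 (3.59 ± 0.158) could not be separated from their neighbours among these 4, since the libraries overlapped. Plxna3 was last at 1.18 ± 0.241.

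In accumbens Plxna2 (35.3 ± 7.42) and Plxna4 (23.2 ± 6.03) again led on the CPM per kb scale. Islr2 moved from rank 8 to rank 3 at 13.1 ± 2.27 and overlapped Plxnc1 at 12.8 ± 0.833. Plxna1 (9.29 ± 1.23) and Nrp2 (8.94 ± 0.0206) overlapped each other and came before Plxnb1 (7.39 ± 0.227). Plxnd1 moved from rank 4 to rank 9 at 4.78 ± 1.51, where it overlapped Nrp1 at 5.76 ± 1.48. The level of Islr2 was 2.51 and 3.09 times that of Plxnd1 in accumbens replicates 1 and 2, and 0.533 and 0.629 times in dorsal striatum.

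**Figure D3:**
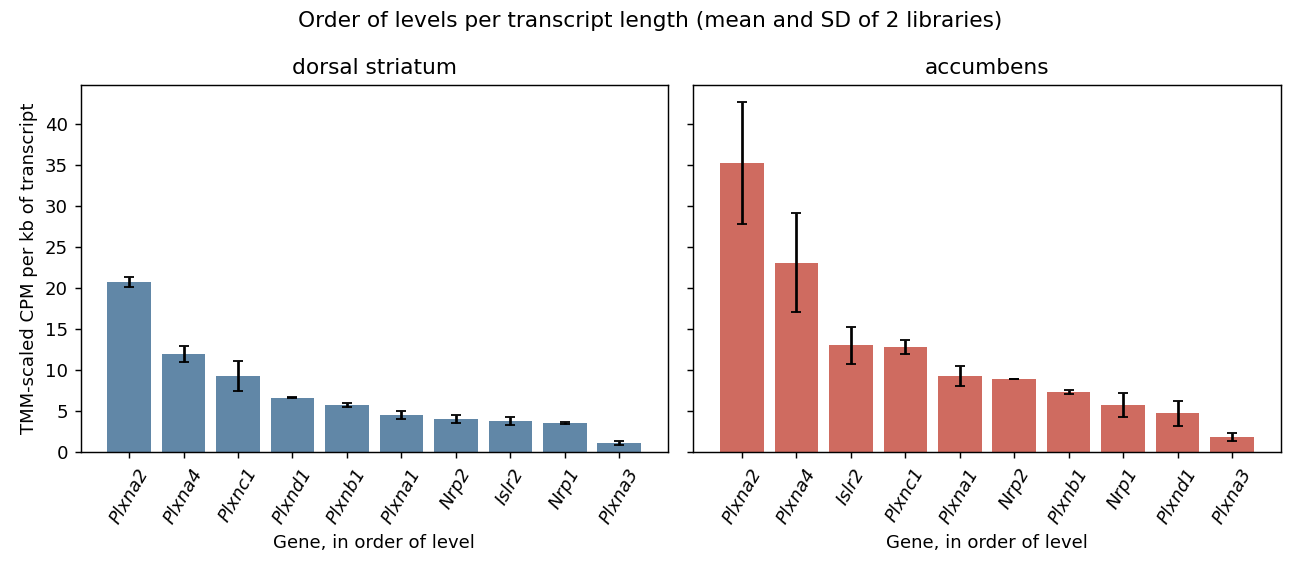
Levels of the 10 genes in TMM-scaled CPM per kilobase of transcript, in order within dorsal striatum (left) and accumbens (right), as mean and SD of 2 libraries. Plxna2 and Plxna4 lead in both regions, while Islr2 has rank 3 in accumbens and rank 8 in dorsal striatum, and Plxnd1 ranks 9 and 4.

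Shares of the plexin family were set side by side on the CPM per kb scale. Over all 9 plexins, Plxnb2 and Plxnb3 included, the 4 class A genes took 69.5% and 67.1% of the summed CPM per kb in accumbens replicates 1 and 2, and 59.0% and 58.2% in dorsal striatum. Plxnd1 took 5.22% and 4.07% in accumbens and 10.4% and 9.96% in dorsal striatum. Within class A the groups did not overlap for Plxna1 and Plxna4, each with a larger share in accumbens, and overlapped for Plxna2 and Plxna3. Plxnb1 took 6.74% and 7.92% in accumbens against 8.81% and 8.86% in dorsal striatum, and Plxnb2 3.88% and 3.14% against 5.37% and 4.33%, both without overlap. Their log2 fold changes were positive all the same, 0.35 and 0.19. Shares within a library are tied, so a share can fall while the level of its gene rises. Separation of shares was not tested, and levels did not overlap for 51.2% of all genes tested. Plxnb3 overlapped. The share of Plxnc1 was 11.98% and 13.4% in accumbens against 12.6% and 15.7% in dorsal striatum, with the groups overlapping.

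Transcript GC content moved with the difference between regions over all genes. With the tested genes in 10 equal bins of rising GC content, the median log2 fold change was 0.31 in bin 10 and 0.21 in bin 9, while bins 5 and 6 had −0.01 each. Islr2 (59.3% GC) and Plxnd1 (60.8%) lie in bin 10, with values of 1.75 and −0.48 against its median of 0.31. Plxna1 (57.3%) and Plxnb1 (57.6%) lie in bin 9. With an offset that levels this trend in each library, Islr2 came to 1.49 and Nrp2 stayed at 1.12, both called. Plxna1 came to 0.84 and Plxnb1 to 0.13, and Plxnd1 to −0.79, none of them called. Plxna3, at 55.0% GC in bin 8, moved from 0.62 to 0.50 and was not called. Nrp1, Nrp2, Plxna2, Plxna4 and Plxnc1, at 49.3% to 51.6% GC, moved little, Plxnc1 most among them, from 0.46 to 0.49.

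**Figure D4:**
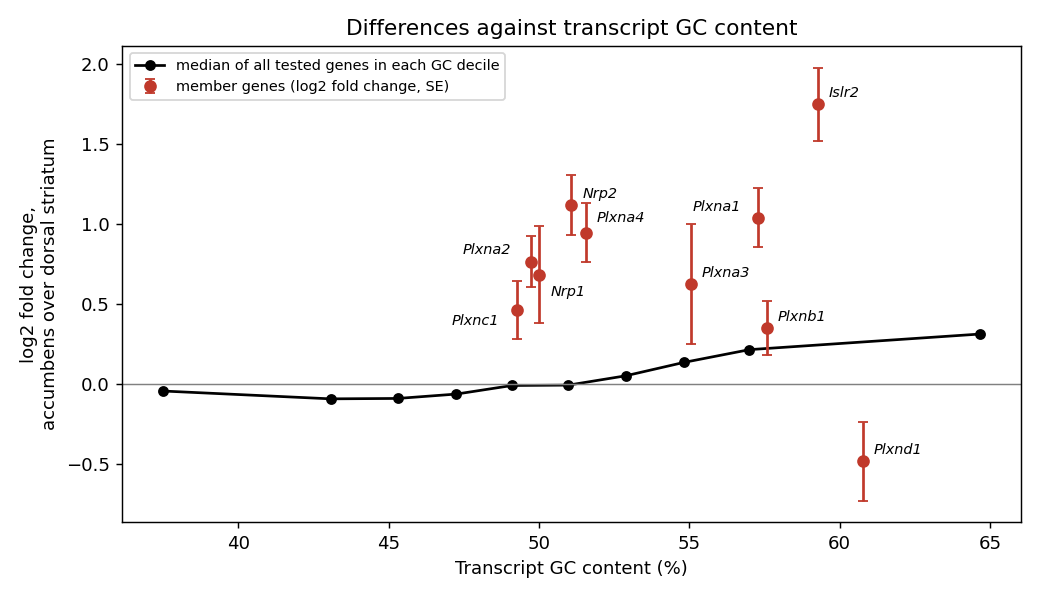
Log2 fold change, accumbens over dorsal striatum, against transcript GC content in percent, for the 10 genes (red, bars for the SE) and for the median of all tested genes in each of 10 bins of GC content (black). Islr2 and Plxnd1, at 59.3% and 60.8% GC, lie far apart on either side of the black line, and Plxnb1 is the closest to it.

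Genes whose pattern over the 4 libraries was most like that of a called member were found by the root mean square difference of centred log2 CPM. The nearest to Islr2 were Rps27, Htr2c and Cox8a (0.07 for each), to Nrp2 Rpl37a, Pid1 and Eif3e (0.03 to 0.04), and to Plxna1 Rplp2, Atp6v0c and Zbtb20 (0.03 to 0.04). The measure rests on 4 libraries and was ranked over 8996 genes. Htr2c encodes a serotonin receptor, and Rps27, Rpl37a and Rplp2 encode ribosomal proteins.

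Genes for ligands and partners of these receptors were set beside all genes tested. Over 6 lists of 84 genes in all, 73 were tested, and 2 passed the threshold, both higher in accumbens, which is 2.74% beside 1.28% over all genes. DESeq2, with 10.4% of all genes called, called 7 higher and 1 lower. The median log2 fold change of these 73 genes was 0.15. Counts at an unadjusted p under 0.05 in the lists below stand beside 19.2% over all genes, and limma-voom calls beside 2.97%.

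Of 18 tested semaphorins none was called in edgeR, with 4 at an unadjusted p under 0.05, 2 called in DESeq2 and 0 in limma-voom. The median log2 fold change was 0.17, with 13 positive values. The most abundant by CPM were Sema6d, at 127 and 205 CPM in accumbens replicates 1 and 2 against 152 and 150 CPM in dorsal striatum, and Sema6a, at 81.6 and 92.9 against 61.0 and 55.4 CPM. Sema6a and Sema6d are membrane-bound ligands of class A plexins. The log2 fold change was 0.14 (SE 0.21) for Sema6d and 0.58 (SE 0.16) for Sema6a. The 5 tested class 3 semaphorins, ligands of the neuropilins and of Plxnd1, lay between −0.35 and 0.19. Sema3e, the ligand of Plxnd1, was at 34.9 and 24.0 CPM in accumbens and at 37.1 and 27.3 CPM in dorsal striatum. Without accumbens replicate 1, where 18.2% of all genes were called, 4 semaphorins were called higher, and without accumbens replicate 2 (28.9%), 4 higher and 1 lower.

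The remaining receptors gave no call in edgeR. Of 5 tested VEGF ligands and receptors, 1 was at an unadjusted p under 0.05, and DESeq2 and limma-voom called 0. Vegfa, the VEGF ligand of Nrp1, was at 50.2 and 41.3 CPM in accumbens and at 64.3 and 53.9 CPM in dorsal striatum, and Vegfb at 28.6 and 30.3 against 19.8 and 18.9 CPM. The plexins outside the group, Plxnb2 and Plxnb3, had log2 fold changes of 0.19 (SE 0.29) and 0.66 (SE 0.29), with 0 at an unadjusted p under 0.05 and 0 called in DESeq2 or limma-voom.

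Of 5 tested co-receptors of plexins and neuropilins, 0 were called in edgeR and limma-voom, 2 in DESeq2, and 2 were at an unadjusted p under 0.05. DESeq2 called 10.4% of all genes, and 19.2% were at an unadjusted p under 0.05 in edgeR. The cell adhesion genes Nrcam and L1cam, whose proteins join neuropilin complexes, had the highest levels. Nrcam stood at 382 and 310 CPM in accumbens replicates 1 and 2 against 257 and 218 CPM in dorsal striatum, and L1cam at 319 and 336 against 208 and 245 CPM. Groups did not overlap in either gene, as in 51.2% of all genes tested, and the log2 fold changes were 0.54 (SE 0.15) and 0.53 (SE 0.13). Of the 5 tested co-receptors, 3 had a positive log2 fold change and 2 a negative one.

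Among 28 tested plexin effectors 1 was called, Rac1, the small GTPase that binds the plexin cytoplasmic domain and drives actin remodelling. Rac1 stood at 618 and 643 CPM in accumbens replicates 1 and 2 and at 421 and 407 CPM in dorsal striatum replicates 1 and 2, a 1.52-fold difference (log2 fold change 0.61, SE 0.11, edgeR adjusted p = 0.0491). The call was lost with DESeq2 size factors, upper-quartile scaling, library size alone, the length offset and without either dorsal striatum library (adjusted p from 0.0503 to 0.169). The 28 effectors were split evenly, with 14 positive and 14 negative values and a median of 0.02.

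Of 15 tested genes for other leucine-rich repeat and immunoglobulin domain proteins and the Islr2 partners, Lrrn3 was called. This transmembrane protein gene stood at 84.0 and 108 CPM in accumbens replicates 1 and 2, against 37.8 and 39.8 CPM in dorsal striatum. Both accumbens libraries were more than 2-fold above both dorsal striatum libraries (log2 fold change 1.31, SE 0.19, edgeR adjusted p = 0.0278). The call held in the 14 alternatives that left out no library, with log2 fold changes from 1.14 to 1.39. These alternatives reuse the same counts, and the list was chosen with earlier results of these data known. Lingo1, from the same list and named after its values were seen, stood at 222 and 90.0 CPM in accumbens replicates 1 and 2, against 56.8 and 75.5 CPM in dorsal striatum. Ret, which encodes a kinase partner of Islr2, was at or below 10.2 CPM in every library and was not called. The list's median was 0.23, with 10 positive values. The log2 fold change of Lrrn3 was 1.48 without accumbens replicate 1 and 1.11 without accumbens replicate 2. Calls of the list in those fits are not read, since a far larger share of all genes passed the threshold there.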

How the data were processed

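The deposited values are unnormalized HTSeq counts for each gene symbol, made by the authors. The submitters' processing notes name STAR 2.0.0e, HTSeq and mm10; the annotation is not given in the sources used here. HTSeq summary rows (27.5% to 35.4% of all counted reads in no feature, 6.06% to 9.46% ambiguous, 6.98% to 10.2% with several alignments) stayed out of library sizes.

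Regions were compared with edgeR 4.0.16 (R 4.3.3): filterByExpr, TMM, estimateDisp, glmQLFit and glmQLFTest with region as the only term, two-sided, Benjamini-Hochberg over all tested genes. SEs were derived from the log2 fold change and its F statistic. Alternatives used DESeq2 1.42.0, limma 3.58.1 and the settings named in the closing section. Transcript length and GC content came from the longest coding transcript per symbol in GENCODE M21 (GRCm38), found for 88.5% of tested genes and all 10 members. Promoter windows came from RefSeq (GRCm38.p6). The fit was checked on simulated counts. Intervals and SEs rest on 2 libraries a region. Members and gene lists were chosen with earlier results of these data known. Besides the members, each pathway list gives its called genes, at most 4 and by size of log2 fold change, or else its 2 most abundant. For each called member the 3 genes nearest in pattern are named, at a mean log2 CPM of at least 3. Other genes (Islr, 1600029O15Rik, Lingo1, Ret, Sema3e, Drd1, Tac1, Rgs9, Gja1, Ndst4, Cldn5, Neurod6) were named after their values were seen. The GC and length offsets remove a lowess trend (span 0.3), in each library, of each gene's deviation from its mean log2 CPM (prior count 2) on that property.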

Additional observations from a re-analysis of the deposited data

How the results depend on the processing

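All 10 members kept the sign of their log2 fold change under all 18 alternatives. The groups overlapped in none of the members, so leaving out 1 library could hardly reverse a sign. The members were also chosen from this contrast, so the kept signs are description only. Over all genes 186 were called. That count was 1203 with no low-count filter, 918 with DESeq2, 431 with limma-voom, 371 with legacy=FALSE in glmQLFit and 113 with the GC offset, and ran from 109 to 4464 when 1 library was left out. Of the members 3 were called, against 1 with library size alone and 5 each with no filter, DESeq2, limma-voom and legacy=FALSE, and 2 to 8 with a library left out (2 without either dorsal striatum library, 8 without accumbens replicate 1, 6 without accumbens replicate 2). Of the pathway genes 2 were called, against 1 with DESeq2 size factors, upper quartile, library size alone or the length offset, 10 with no filter, 8 with DESeq2 and 1 to 22 with a library left out. When 1 library of a region was left out, the lone library was taken to vary like the pair. The cause of these changes was not tested.

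With the replicate number as a block, 843 genes, 5 members and 8 pathway genes were called, and with the block and the GC offset 754, 6 and 6, Plxnd1 then being called lower. Deviations of same-numbered libraries correlated at 0.03 over genes, and no label pairs them, so the numbers are not taken as pairs. A robust fit, a minimum of 10 counts and leaving out the 50 most abundant genes changed each of these counts by at most 1.5 times.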
